A study of Mus musculus with 4 samples.

Results

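The insulin-like growth factor (IGF) axis was examined at the RNA level in mouse mammary basal cells with and without the microRNA miR-205. Its members here were 9 genes taken by symbol: the ligands Igf1 and Igf2, the receptors Igf1r, Igf2r and Insr, and the binding proteins Igfbp2, Igfbp5, Igfbp6 and Igfbp7. All 9 had a row among the 34615 genes counted, and all 9 passed the filter on low counts that left 15364 genes for testing. The KO group came from cells with the genotype miR205fl/flmTmGfl/fl cre+, in which both copies of miR-205 are flanked by loxP sites. The WT group came from cells with the genotype WTfl/flmTmGfl/fl cre+, which carry normal miR-205. Both groups carried the mTmG reporter at the Rosa locus, which turns from red to green fluorescence after Cre, and both were treated with an adenovirus that expresses Cre (Ad-cre). Both were then transplanted into SCID-Beige mice aged 3 weeks. These hosts lack T and B cells but keep their own stroma and myeloid cells. Outgrowths were taken after 8 weeks, and the design text gives a pool of 40 outgrowths. GFP+ CD24+ CD49f high basal cells were sorted for RNA sequencing, with 2 KO and 2 WT libraries. Nothing states that the replicates came from separate animals or pools, so the p-values reflect only how far these 4 libraries spread, a spread that could be technical.

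IGF1 and IGF2 are secreted growth factors that act mainly through the IGF1 receptor, a tyrosine kinase that also pairs with the insulin receptor. The IGF2 receptor has no kinase and carries IGF2 to lysosomes for breakdown. The IGF-binding proteins hold the ligands outside the cell and prolong or block their action, and some also bind matrix or cell surfaces. In the mammary gland, stromal IGF1 made in response to growth hormone drives duct growth at puberty, and IGFBP5 is known for its rise when the gland regresses after weaning.

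The deleted microRNA is shown because its seed defines the matches searched for in the members. Its mature form lies at chr1:193507503-193507524 on the minus strand (RefSeq, GRCm38.p6), and capitals mark the seed, bases 2 to 8.
mmu-miR-205-5p: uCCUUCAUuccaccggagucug
The longest annotated 3′ untranslated region of each member was searched on the transcript strand for ATGAAGG, ATGAAGGA and TGAAGGA, which overlap one another. Insr was the 1 member of 9 with a match, to TGAAGGA, at chr8:3153060-3153084 on the minus strand (GENCODE M21, GRCm38). In Insr this string pairs with the seed except at base 8. Capitals mark the match.
Insr: gggagaacttTGAAGGAgagagttt
Among 18168 protein-coding genes, 3640 (20.04%) held at least 1 of these matches, and the share was 52.4% among 1333 genes with a region within 25% of the length of that of Insr. In Igf1r and Igf1, whose regions are 7267 and 6308 bases long, these letters did not occur, whereas 63.6% and 60.7% of genes with regions of like length held a match. A match is a run of letters in an annotation and was not tested as a site.

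Depth was 60030932 and 47953972 gene counts in KO and 53067076 and 57650462 in WT. Fewer genes were seen in KO replicate 2: 12679 had a count there, against 18897 in KO replicate 1 and 18139 and 18027 in WT. Across genes, log2 CPM (counts scaled by library size) of KO replicate 2 correlated with those of the other libraries at 0.880 to 0.888, whereas the other 3 correlated with each other at 0.965 to 0.976. Genes are not independent, so these are descriptions. Basal identity was plain in every library, with Krt5, the basal keratin, at 1773 and 1512 CPM in KO and 1219 and 1219 CPM in WT. Krt14 was not analysed here. Values below are CPM scaled by TMM, a method that evens out differences in library composition.

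The basal cells held far more RNA for the binding protein Igfbp5 than for any other member, moderate levels of the 3 receptors, and little RNA for the ligands. No member was called in KO against WT: all 9 had an adjusted p of 0.999 in the edgeR quasi-likelihood test, where 0 of all 15364 genes (0.0%) passed an adjusted p of 0.05. An unadjusted p under 0.05 was reached by 147 genes (0.957%) and by none of the 9 members. The Wald test of DESeq2 called 12 of the 20652 genes it fitted (0.0581%), limma voom called 0.0% of genes, and neither called a member. Of the 9, 7 had a positive fold change and 2 a negative one, with a median log2 fold change of 0.24, against -0.14 over all genes tested. Both KO libraries lay above both WT libraries in Igfbp2, Igfbp5 and Igf1, and below them in Igf1r, which is 4 of 9 members, while 32.4% of all tested genes parted in this way, 13.2% with KO above WT and 19.2% with KO below. In sorted bulk samples, fewer cells of a type and less RNA per cell cannot be told apart.

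**Figure D1:**
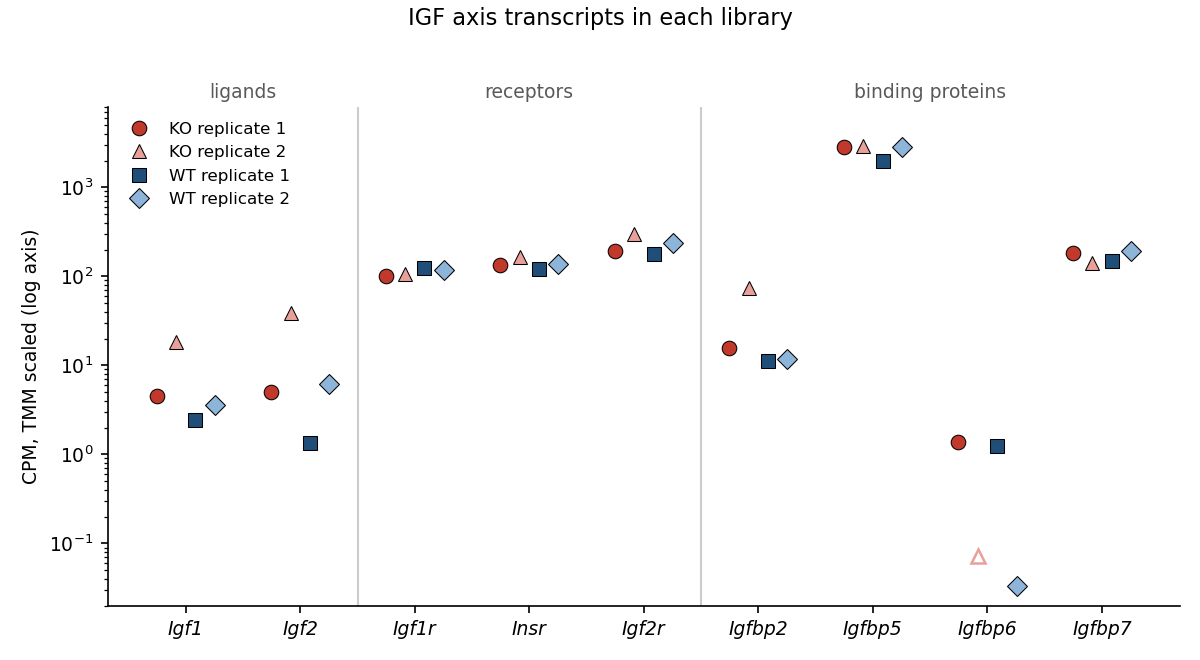
Level of each IGF axis transcript in each library, as TMM-scaled CPM on a log axis, with 1 point per library. Igfbp5 sits between 1993 and 2943 CPM in every library, KO replicate 2 stands apart in Igf1, Igf2 and Igfbp2, and the open triangle marks a count of 0 for Igfbp6, drawn at the level of 3 counts.

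Both ligands were near the low end of the family and were highest in KO replicate 2. Igf1 (ENSMUSG00000020053, chromosome 10) had 4.52 and 18.5 CPM in KO, against 2.41 and 3.58 CPM in WT. The KO libraries were both above WT, but KO replicate 2 was 4.08 times KO replicate 1. The fitted log2 fold change of Igf1 was 1.94 ± 1.09 (SE), with an unadjusted p of 0.136 in the edgeR test. Igf2 (ENSMUSG00000048583, chromosome 7), the growth factor of the fetus that is expressed from the paternal copy, had 5.04 and 38.5 CPM in KO, against 1.33 and 6.17 CPM in WT. The groups overlapped for Igf2, since KO replicate 1 lay between the WT libraries, which differed 4.63 times from each other. Its log2 fold change was 2.54 ± 1.34 (SE), with an unadjusted p of 0.116 in the edgeR test. Without KO replicate 2 the log2 fold changes of Igf1 and Igf2 were 0.60 ± 0.74 and 0.43 ± 0.94 (SE). Later annotation places a readthrough gene over 62.8% of the exon bases of Igf2. That gene has no row in the counts, so reads of its transcripts there may be counted as Igf2. The pancreatic hormone genes Ins1 and Ins2 had a count of 0 in each of the 4 libraries, which allows up to 0.0477 and 0.0719 CPM in KO and up to 0.0532 and 0.0504 CPM in WT, for counting error alone.

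The receptors differed little between the groups. Igf1r (ENSMUSG00000005533, chromosome 7), the receptor that signals for both IGFs, had 100.7 and 105.2 CPM in KO, against 125.0 and 116.6 CPM in WT. It was the member with both KO libraries below both WT libraries, and its replicates lay close together. The log2 fold change was -0.23 ± 0.24 (SE), about the size of its error. That error comes from a fit that shares its estimate of spread across genes, not from the Igf1r replicates alone. Leaving out KO replicate 2 or KO replicate 1 gave -0.26 ± 0.20 and -0.20 ± 0.21, so this small difference did not rest on 1 KO library. Insr (ENSMUSG00000005534, chromosome 8), the insulin receptor and the member with the match to TGAAGGA, had 134.8 and 163.4 CPM in KO, against 122.5 and 139.1 CPM in WT. The groups overlapped for Insr, with a log2 fold change of 0.19 ± 0.24 (SE). Igf2r (ENSMUSG00000023830, chromosome 17) had 191.2 and 298.8 CPM in KO, against 180.6 and 235.4 CPM in WT, with a log2 fold change of 0.24 ± 0.31 (SE). Its groups overlapped too, and without KO replicate 2 the sign turned, to -0.12 ± 0.21. The unadjusted p-values of the 3 receptors in the edgeR test were 0.374, 0.474 and 0.474 for Igf1r, Insr and Igf2r. Insrr, the insulin receptor-related receptor, had a count of 0 in every library.

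Per kilobase of exon, the order of the receptors was the same in every library, with Igf2r highest, then Insr, then Igf1r. Igf2r stood at 20.5 and 32.1 CPM per kb in KO and 19.4 and 25.3 in WT. Insr stood at 9.80 and 11.9 CPM per kb in KO and 8.91 and 10.1 in WT. Igf1r stood at 6.0 and 6.27 CPM per kb in KO and 7.45 and 6.95 in WT. In no library did these neighbours cross, so the order per kb held beyond the spread of the 4 libraries. It rests in part on the annotated exon lengths, 16791 bases for Igf1r and 13746 for Insr. Before division by length, Igf1r had 125.0 and Insr 122.5 CPM in WT replicate 1. Within each library, which removes any scaling between libraries, Igf1r came to 0.612 and 0.527 times Insr in KO and 0.835 and 0.686 times Insr in WT. The KO ratios were both below the WT ratios, a pattern chosen after its values were seen, and an exact permutation test of 2 against 2 libraries cannot go below 0.333. As a share of the 3 receptors, Igf1r made up 14.5% ± 2.85 in KO and 18.6% ± 3.13 in WT (SD, n = 2 each), with overlapping libraries and an exact two-sided permutation p of 0.667. Igf2r made up 60.2% ± 5.20 in KO and 57.0% ± 3.86 in WT, and Insr 25.3% ± 2.35 in KO and 24.4% ± 0.729 in WT, both also overlapping. Without division by exon length the Igf1r and Insr shares parted the groups, with KO lower for Igf1r and higher for Insr. The differences, KO minus WT, were then -5.40 and 1.72 percentage points, with an exact permutation p of 0.333 each. The Igf2r shares still overlapped, with an exact permutation p of 0.667.

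**Figure D2:**
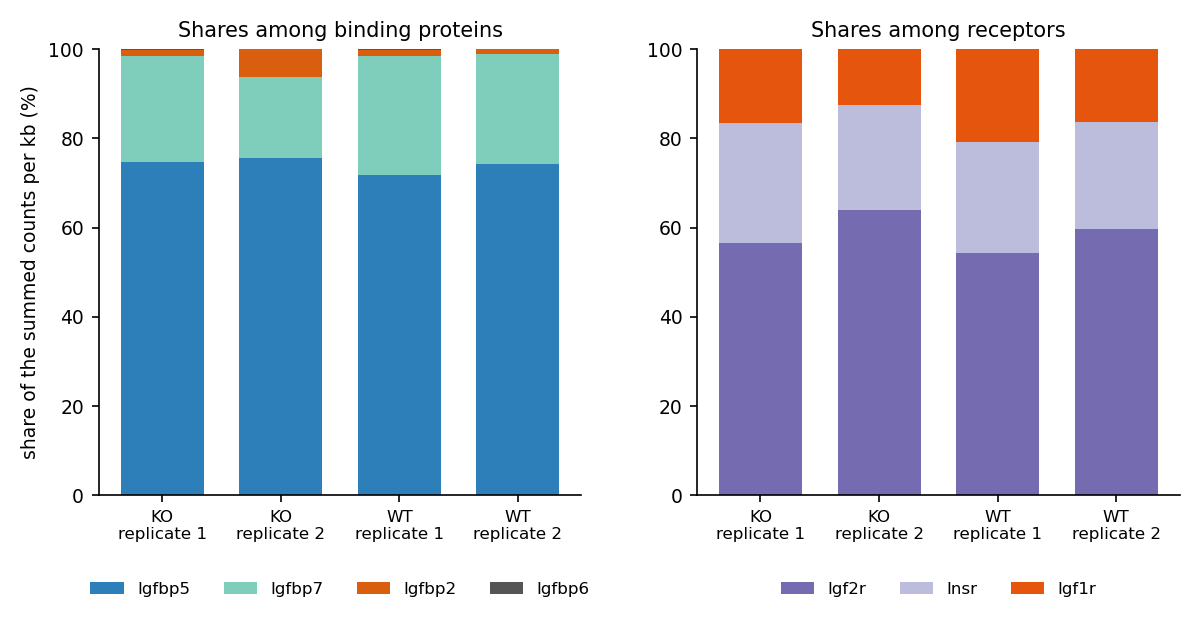
Shares of each binding protein (left) and each receptor (right) in the summed counts per kb of its family, in percent, with 1 bar per library. Igfbp5 fills 71.7% to 75.7% of the binding protein bars, and the Igfbp2 segment is widest in KO replicate 2, at 6.13%.

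Igfbp5 dominated the 4 binding protein members. Igfbp5 (ENSMUSG00000026185, chromosome 1), a binding protein that also attaches to extracellular matrix, had 2875 and 2943 CPM in KO, against 1993 and 2858 CPM in WT. By CPM per kb it ranked 31 and 32 in KO and 49 and 29 in WT among the 14493 tested genes with an annotated exon length. Both KO libraries were above both WT libraries by this scaling, but KO replicate 1 exceeded WT replicate 2 by a small margin, and with total count scaling the groups overlapped, at 3010.1 and 2561 CPM in KO and 2116 and 2949 CPM in WT. The log2 fold change of Igfbp5 was 0.26 ± 0.23 (SE), with an unadjusted p of 0.303 in the edgeR test. Without KO replicate 2 it was 0.25 ± 0.19, and without WT replicate 1, the lowest library, it was 0.02.

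The 3 genes whose pattern over the 4 libraries lay closest to that of Igfbp5, by distance between centred log2 values among 8841 genes, were Pttg1ip, Tusc3 and Zdhhc20. Pttg1ip had 810.4 and 841.5 CPM in KO and 596.7 and 798.2 CPM in WT, likewise with WT replicate 1 lowest. With 4 libraries this likeness is a description.

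Igfbp7 was the second most abundant of the 4 binding protein members in every library. Igfbp7 (ENSMUSG00000036256, chromosome 5), which binds IGFs weakly and is abundant in vessel walls, had 184.1 and 142.0 CPM in KO, against 149.4 and 190.6 CPM in WT. The groups overlapped, with means of 163.1 ± 29.8 CPM in KO and 170.0 ± 29.1 CPM in WT (SD, n = 2 each) and a log2 fold change of -0.06 ± 0.26 (SE), the other negative value among the members. That sign turned to 0.12 ± 0.20 without KO replicate 2. Endothelial markers, led by Cdh5 and Flt1, summed to 196.5 and 120.0 CPM in KO and 130.3 and 239.9 CPM in WT over 11 genes. The sum ranked the libraries as Igfbp7 did, but not every gene in it did. Flt1 had 45.2 and 45.9 CPM in KO and 24.0 and 53.0 CPM in WT. Of the 11 genes, 2 had positive and 9 negative fold changes. In KO replicate 2 Cldn5 was at a count of 0. Their part in the Igfbp7 values was not tested. Igfbp7 shares 7.03% of its annotated exon bases with Polr2b on the opposite strand, and the strand setting of the counts is not given in the sources used here.

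Igfbp2 had WT libraries close to each other and a single high KO library. KO replicate 2 was also the highest library for Igf1 and Igf2. Igfbp2 (ENSMUSG00000039323, chromosome 1), a secreted binding protein found in many tissues and tumours, had 15.5 and 73.3 CPM in KO, against 11.2 and 11.7 CPM in WT. Both KO libraries were above WT, and KO replicate 2 was 4.72 times KO replicate 1. The log2 fold change was 1.95 ± 0.83 (SE), with an unadjusted p of 0.0647 in the edgeR test, the smallest among the members. Without KO replicate 2 it was 0.44 ± 0.43. Igfbp2 lies next to Igfbp5 with no other counted gene between them, and the pair point toward each other. The neighbours differed in level: Igfbp5 had 57.0 and 12.4 times the counts per kb of Igfbp2 in KO and 54.5 and 75.0 times in WT.

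Igfbp6 was low in each group's replicate 1 and at or near the limit of detection in each group's replicate 2. Igfbp6 (ENSMUSG00000023046, chromosome 15), which prefers IGF2 over IGF1, had 87 and 0 counts in KO and 70 and 2 counts in WT, or 1.38 and 0.00 CPM in KO and 1.24 and 0.0336 CPM in WT. Each group thus held 1 library with at least 70 reads and 1 with at most 2. A count of 0 in KO replicate 2 allows up to 0.0719 CPM. Among the 2884 tested genes with a WT mean of 0.3 to 1.5 CPM, a range chosen after the values were seen, 57.5% had no count in KO replicate 2 and 1.6% had none in KO replicate 1. The fitted log2 fold change of 0.12 ± 2.82 (SE) says nothing on direction at this depth.

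As shares of the 4 binding proteins per kb of exon, Igfbp5 made up 74.7% and 75.7% in KO and 71.7% and 74.4% in WT, and Igfbp7 made up 23.8% and 18.1% in KO and 26.7% and 24.6% in WT. Both parted the groups, Igfbp5 with the KO libraries higher and Igfbp7 with the KO libraries lower, at an exact two-sided permutation p of 0.333 each, the smallest that 2 against 2 libraries allow. Without division by exon length the Igfbp5 share no longer parted the groups. Its difference, KO minus WT, was then 0.388 percentage points, with an exact permutation p of 0.667. That of Igfbp7 was -1.34, with an exact permutation p of 0.333. Igfbp2 made up 1.31% and 6.13% in KO and 1.31% and 0.991% in WT, with an exact p of 0.667. Since shares sum to 100%, these are not separate results. The summed binding proteins exceeded the summed ligands 479 and 75.3 times in KO and 971 and 444 times in WT, on counts per kb. The lowest ratio was again that of KO replicate 2, the library with the most ligand RNA. The binding protein genes Igfbp1, Igfbp3 and Igfbp4 were not analysed here.

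**Figure D3:**
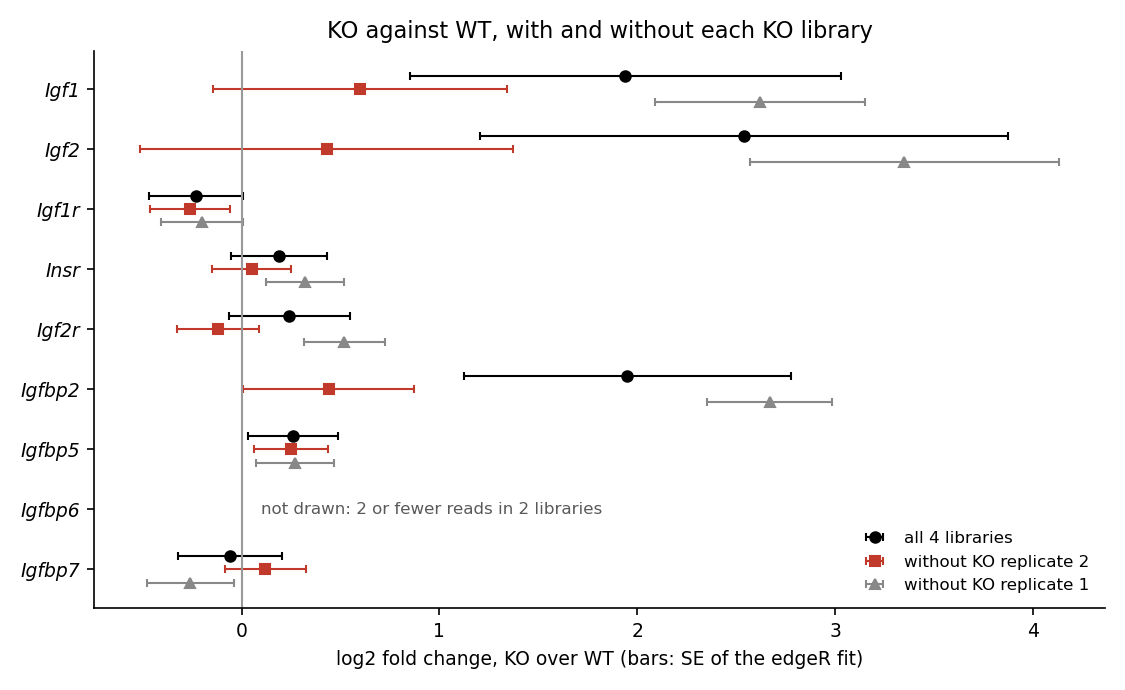
Log2 fold change, KO over WT, of each member except Igfbp6, which is not drawn. Bars are the SE of the edgeR fit, from all 4 libraries and with each KO library left out. Igf1, Igf2 and Igfbp2 lie at 1.94 to 2.54 with all libraries and at 0.43 to 0.60 without KO replicate 2, while Igf1r and Igfbp5 barely move.

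The 3 members with the widest fitted differences thus shared 1 library. Igf1, Igf2 and Igfbp2 were 4.08, 6.24 and 4.72 times the highest of the other 3 libraries in KO replicate 2. Among 6754 tested genes with a WT mean of 1 to 20 CPM, limits chosen after the values were seen, 7.3% were at least 3 times the highest other library in KO replicate 2, against 0.1% in KO replicate 1 and 2.2% and 2.6% in the WT libraries. When KO replicate 1 was left out, so that KO replicate 2 stood alone for KO, these 3 members were called higher in KO by the edgeR test, with adjusted p-values of 0.0106, 0.0169 and 0.00289. In that comparison 34.9% of all tested genes were called, 12.4% as higher in KO. When KO replicate 2 was left out, 0.0% of genes were called, and without WT replicate 1 or WT replicate 2 the share was 0.0305% and 0.0306%, with no member among them. The low detection in KO replicate 2 and the loss of miR-205 cannot be told apart there.

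Some markers of other cell types were also high in KO replicate 2, and others had no count there. Fibroblasts, a known source of IGF1 and IGF2, were followed by 12 markers that summed to 965.4 and 1213 CPM in KO and 792.3 and 878.9 CPM in WT, led by Fbn1 and Fbln2. Dcn, the decorin gene, had 153.2 and 221.3 CPM in KO and 89.5 and 105.6 CPM in WT. Its unadjusted p of 0.0221 in the edgeR test was the smallest of the 12. Dpt and Mfap5 had a count of 0 in KO replicate 2. Of the 12 genes, 8 had positive and 4 negative fold changes. The median log2 ratio to the WT mean was 0.02 in KO replicate 1 and 0.19 in KO replicate 2. Adipocyte markers summed to 41.4 and 150.8 CPM in KO and 26.7 and 40.9 CPM in WT over 7 genes. Nearly all of the sum in KO replicate 2 was Fabp4, at 138.8 CPM, a gene also known in endothelial cells and macrophages. The defining markers Adipoq, Plin1, Lep, Cfd and Cidec were at 0 in that library, but none exceeded 0.834 CPM in any library. Of the 7 adipocyte markers, 2 and 5 had no count in KO and 3 and 4 had none in WT. Immune markers summed to 102.9 and 318.9 CPM in KO and 71.7 and 156.5 CPM in WT over 11 genes, led by Cd74 and Ptprc, with Adgre1, Cd52, Tyrobp and Fcer1g at 0 in KO replicate 2. Cd74, an antigen presentation gene, made up 289.2 CPM of the sum in KO replicate 2, and the list as a whole did not follow it: 4 of 9 tested genes had positive and 5 negative fold changes, and the median log2 ratio of KO replicate 2 to the WT mean was -1.14. Luminal markers, led by Plet1 and Epcam, summed to 2176 and 3466 CPM in KO and 2222 and 3079 CPM in WT over 13 genes, with Elf5 at 0 in KO replicate 2. Plet1 alone gave 1857 CPM of the sum in KO replicate 2, and 5 of the 13 genes had positive and 8 negative fold changes. Pericyte markers, led by Mcam and Rgs5, summed to 194.8 and 211.3 CPM in KO and 158.7 and 273.7 CPM in WT over 7 genes, with Pdgfrb, Kcnj8 and Cspg4 at 0 in KO replicate 2. Fold changes were positive for 3 and negative for 4 of these genes, and the median log2 ratio of KO replicate 2 to the WT mean was -0.65. The 12 basal markers, led by Acta2 and Itga6, summed to 13422 and 11182 CPM in KO and 11392 and 10923 CPM in WT, with 7 positive and 5 negative fold changes. The part of these cells in the Igf1, Igf2 and Igfbp2 values was not tested.

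**Figure D4:**
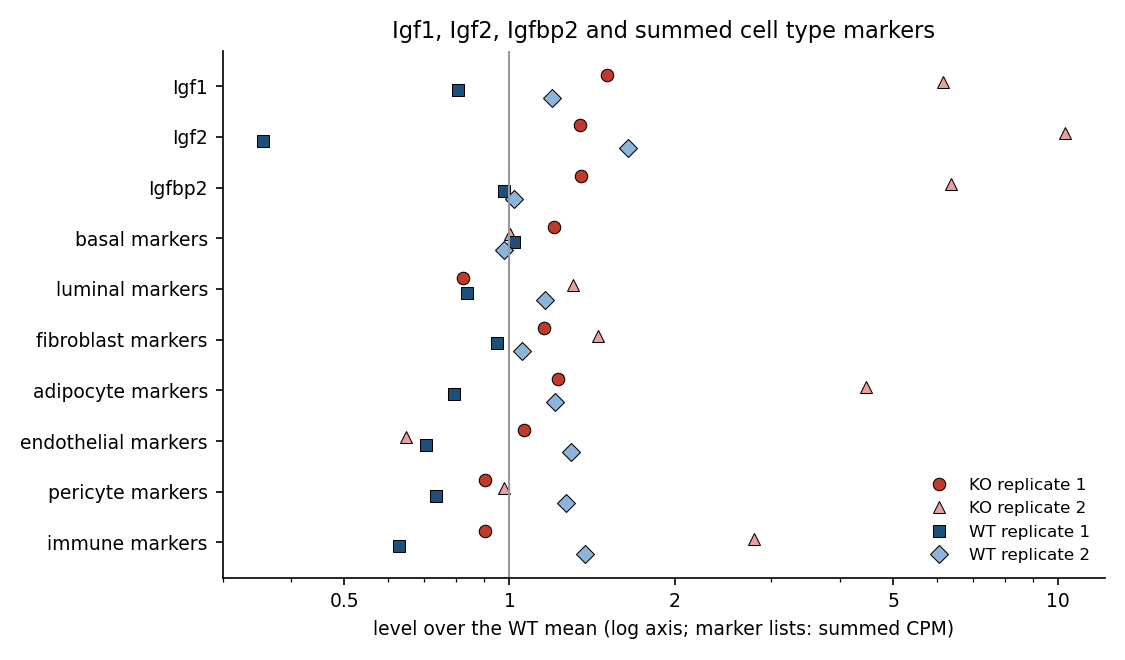
Levels of Igf1, Igf2 and Igfbp2 and summed CPM of cell type marker lists in each library, divided by the mean of the 2 WT libraries, on a log axis. KO replicate 2 lies 6.16, 10.3 and 6.39 times above the WT mean for the 3 genes, and the adipocyte and immune sums, at 4.46 and 2.79 times, are there mostly the single genes Fabp4 and Cd74.

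Genes that act around the members were described from lists built from general knowledge, and 0 genes of any of these lists were called or reached an unadjusted p under 0.05. In the list of proteases that cut IGF-binding proteins and their inhibitors, 4 of 8 tested genes had positive and 4 negative fold changes, with a median log2 fold change of 0.05 (-0.07 with total count scaling). Stc1, which encodes stanniocalcin-1, an inhibitor of the protease PAPP-A, had 15.6 and 37.8 CPM in KO and 13.9 and 14.8 CPM in WT. Pappa2, a protease that cuts IGFBP5, was low, with 0.350 and 0.00 CPM in KO and 0.941 and 2.92 CPM in WT, and Htra3 was lower still, with a log2 fold change of -2.29 ± 2.64 (SE). The most abundant of these genes, chosen after its values were seen, was Pappa, with 239.9 and 529.5 CPM in KO and 385.2 and 544.6 CPM in WT, which overlapped. Among other binding protein genes, Igfbpl1 had 0.0955 and 25.7 CPM in KO and 0.248 and 0.487 CPM in WT, again high in KO replicate 2 alone. Igfals, the subunit that stabilises IGFs in blood, had a log2 fold change of -1.80 ± 2.50 (SE).

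Downstream of the receptors, the adaptor and PI3K-AKT-mTOR list was split, with 15 of 31 tested genes positive, 16 negative and a median of -0.04. Ptpn1, a phosphatase that switches off the insulin receptor, had 96.7 and 250.8 CPM in KO and 86.6 and 95.9 CPM in WT, a log2 fold change of 0.93 ± 0.49 (SE). Rheb, which activates mTORC1, had 106.3 and 140.2 CPM in KO and 96.1 and 91.9 CPM in WT, with a log2 fold change of 0.39 ± 0.27 (SE) and both KO values above the WT values. The main adaptors, chosen after their values were seen, went opposite ways. Irs1 had 30.7 and 38.8 CPM in KO and 50.4 and 43.2 CPM in WT, and Irs2 had 235.8 and 278.1 CPM in KO and 211.1 and 234.4 CPM in WT.

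FOXO factors, which insulin and IGF signals keep out of the nucleus, and genes known as their targets had 8 positive and 7 negative fold changes among 15 tested, with a median of 0.10 (-0.02 with total count scaling). Sesn1, a restrainer of mTORC1, had 12.4 and 57.8 CPM in KO and 9.19 and 11.5 CPM in WT. Ccng2, which encodes cyclin G2, had 21.3 and 10.2 CPM in KO and 31.4 and 29.9 CPM in WT. Cdkn1b, the cell cycle inhibitor p27, had 27.3 and 84.9 CPM in KO and 27.2 and 30.3 CPM in WT. The fold changes of these genes thus differed in sign.

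Among 5 tested genes of growth hormone input, 2 were positive and 3 negative, with a median of -0.46, which was 0.01 without KO replicate 2 and -1.16 without KO replicate 1. Ghr, the growth hormone receptor, had 91.4 and 102.1 CPM in KO and 87.9 and 72.3 CPM in WT. Prlr, the related prolactin receptor and a luminal marker, varied widely within groups, with 29.2 and 210.1 CPM in KO and 21.8 and 100.6 CPM in WT, and the kinase Jak2 had a log2 fold change of -0.54 ± 0.51 (SE). In the list of IGF2 mRNA-binding proteins and imprinted genes, 3 of 6 tested genes were positive and 3 negative, with a median of -0.24, which was 0.04 without WT replicate 2 and -1.95 without KO replicate 1. Igf2bp3, a fetal protein that binds Igf2 mRNA, had 23 and 27 counts in KO and 152 and 206 counts in WT, or 0.366 and 0.647 CPM in KO and 2.70 and 3.46 CPM in WT. Both KO libraries lay below both WT libraries, with a log2 fold change of -2.60 ± 1.44 (SE) and an unadjusted p of 0.131 in the edgeR test. Igf2bp2 and the imprinted growth inhibitor Cdkn1c had log2 fold changes of -1.11 ± 1.86 and -0.58 ± 1.35 (SE). H19, the imprinted neighbour of Igf2, had 1.51 and 0.00 CPM in KO and 0.124 and 0.723 CPM in WT. Its count of 0 in KO replicate 2, where Igf2 was high, cannot be read as a difference from Igf2. Among tested genes with a WT mean of 0.3 to 1.5 CPM, 57.5% had no count in that library. Airn, the antisense RNA that crosses Igf2r, had 21.8 and 28.6 CPM in KO and 23.0 and 23.9 CPM in WT, with Igf2r at 8.77 and 10.4 times its counts in KO and 7.86 and 9.83 times in WT. H19 and Airn were chosen after their values were seen. Without known strand, reads of Igf2r and Airn cannot be fully separated.

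**Figure D5:**
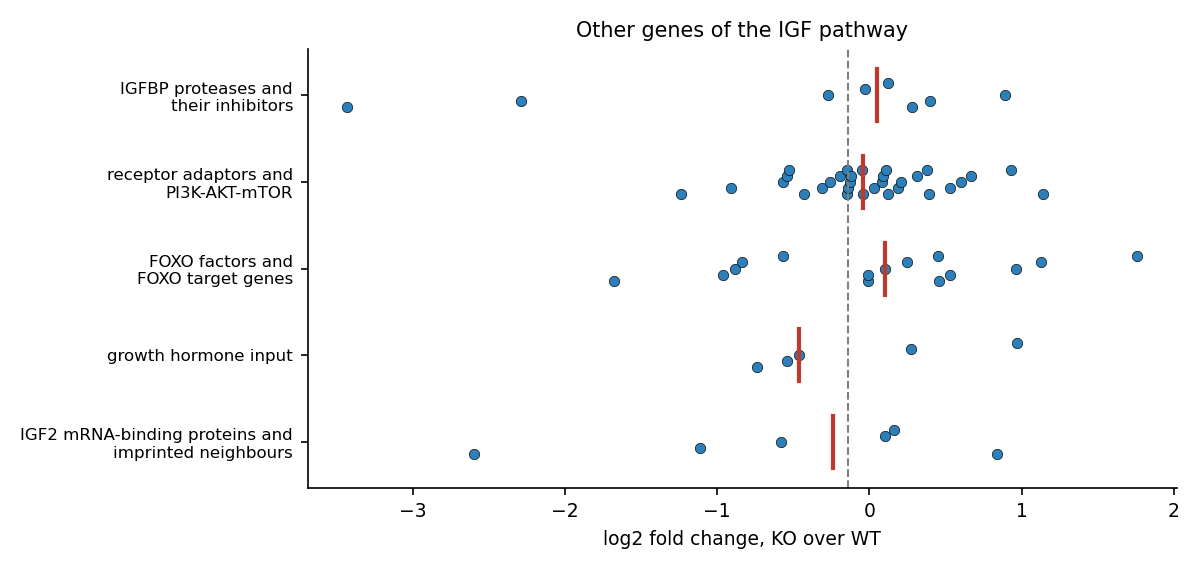
Log2 fold change, KO over WT, of the other tested genes in 5 lists around the IGF axis, with 1 point per gene and 1 line per list, where the red bar is the list's median and the dashed line the median of all genes tested, -0.14. Over these 5 lists the medians run from -0.46 for 5 growth hormone input genes to 0.10 for 15 FOXO genes.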

How the data were processed

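For each library the authors deposited raw read counts by Ensembl gene identifier. TopHat2 (2.02), HTSeq and the build NCBIM37 (mm9) are named in the submitters' processing notes; neither strand setting nor annotation release is given in the sources used here. RNA came from a PicoPure kit and libraries from NuGEN and Illumina protocols, per the labels' protocols. The 5 HTSeq summary rows stayed out: reads outside any feature were 57.85% and 61.52% in KO and 61.4% and 57.59% in WT. Symbols and exon lengths came from GENCODE M21 (GRCm38), a later build than the counts, matched on gene identifiers (30082 of 34615 rows).

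KO was tested against WT with edgeR (4.0.16) in R (4.3.3): filterByExpr, TMM, quasi-likelihood F test, Benjamini-Hochberg adjustment over all 15364 genes tested. The common biological coefficient of variation was 0.932. Shares were tested with exact two-sided permutation. Alternatives used DESeq2 (1.42.0), limma (3.58.1) voom, other scalings and filters, a replicate block, and each library left out. The fit was also run on simulated counts with equal spread in all 4 libraries. No simulated library was set apart by low detection like KO replicate 2, so that setting was not covered. Floors are 3 counts and cover counting error alone. Members and lists were chosen with earlier results of these data known. The rule for named genes took all 9 members, the 3 genes with the smallest p in each list, the 3 nearest in pattern to the most abundant member, and the 2 highest markers of each cell type; others are stated as chosen after their values were seen, apart from Krt5, Cdh5 with its co-listed markers, Dcn, Fabp4 and markers at 0, which describe the cells. 1 gene that this rule takes is not reported here.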

Additional observations from a re-analysis of the deposited data

How the results depend on the processing

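The count of 0 called genes became 12 with the DESeq2 Wald test, and ran from 0 to 5724 over the fits that left out 1 library each: 5 without WT replicate 1, 5 without WT replicate 2, 5724 without KO replicate 1 and 0 without KO replicate 2. The count of called members was 0 as reported and ran from 0 to 3 over those fits, the 3 being Igf1, Igf2 and Igfbp2 without KO replicate 1; the lone library of a group is there assumed to vary like the others. It was 0 with DESeq2, limma voom, the 3 other scalings, both filters and the replicate block. With the replicate block 0 genes were called and 79 had an unadjusted p under 0.05. No source says what a replicate number shares, and deviations of same-numbered libraries from their group means correlated at 0.034 across genes.

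Igf1, Igf2, Igf1r, Insr, Igfbp2 and Igfbp5 kept their sign in all 12 alternatives. The log2 fold change of Igfbp6 turned to -0.67 with limma voom and -1.08 with the replicate block, and ran from -8.07 to 4.28 over fits without 1 library; it had no value with the filter at a mean of 5 CPM, which it did not pass. Igfbp7 ran from -0.26 to 0.13 and Igf2r from -0.12 to 0.52 over those fits. Differences in share, KO minus WT, ran from -0.144 to 0.0924 percentage points for Igfbp6, from -0.456 to 6.90 for Igf2r and from -0.755 to 2.57 for Insr. Why these signs turned was not tested. Without KO replicate 2 the medians of the protease, adaptor and FOXO lists were -0.20, 0.05 and -0.05, each of the other sign, and that of the growth hormone input list was 0.01. Without WT replicate 2 the medians of the adaptor list and of the IGF2 mRNA-binding and imprinted list were 0.11 and 0.04, and without KO replicate 1 the IGF2 mRNA-binding and imprinted list had -1.95. The median of all genes was -0.24 with total count scaling and -0.23 with upper quartile scaling, against -0.14 with TMM. The median of the 2 other binding protein genes, Igfbpl1 and Igfals, was 1.66, and -1.36 without KO replicate 2.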
